A study of Mus musculus with 12 samples.

Results

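The 10 genes described here are the mouse myosin heavy chain genes *Myh1*, *Myh2*, *Myh3*, *Myh4*, *Myh6*, *Myh7*, *Myh7b*, *Myh8*, *Myh9* and *Myh10*. They were chosen by name as the embryonic, perinatal, fast, slow and non-muscle members of the family, under a rule that uses no measured value, and all 10 were found among the 46983 genes of the deposited table, of which 27138 were above 0 in at least 1 library. The RNA came from C2C12, an established line of mouse muscle precursor cells that can stop dividing and form multinucleate myotubes, harvested at the start (0d) and at the end (5d) of 5 days of differentiation. The WT cells, labelled wild type, were the group named after the PiggyBac vector PB-IP. The PPARγ/+ cells carried the coding sequence of PPARγ, a nuclear receptor best known as a regulator of fat cells, in this vector and had been selected with puromycin. All 4 groups (WT_0d, WT_5d, PPARγ/+_0d and PPARγ/+_5d) held 3 libraries, described by the study as biological replicates. The methods speak of positive clones and do not say how many were pooled. The series text calls the line inducible and its controls uninduced, while the methods name no inducer and no change of medium at the start of differentiation.

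Class II myosins are hexamers of a pair of heavy chains and 2 kinds of light chain, and the heavy chain holds the ATP-hydrolysing motor and the tail that assembles into filaments. In skeletal muscle the sarcomeric heavy chains follow each other in development: the embryonic chain of *Myh3* and the perinatal chain of *Myh8* precede the adult fast chains of *Myh4* (type 2B), *Myh1* (type 2X) and *Myh2* (type 2A), while *Myh7* makes the slow chain of type 1 fibres and of the heart and *Myh6* the other cardiac chain. *Myh9* and *Myh10* make the non-muscle chains IIA and IIB, which contract actin bundles in the cytoplasm of most cells, and *Myh7b* is a slow-like chain related to *Myh7*.

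In GRCm38, 5 of the sarcomeric genes lie side by side on the forward strand of chromosome 11, in the order *Myh3* (67078300 to 67102291), *Myh2* (67171027 to 67197517), *Myh1* (67200052 to 67224575), *Myh4* (67238029 to 67260446) and *Myh8* (67277124 to 67308634). *Myh6* (54941921 to 54966927) and *Myh7* (54970684 to 54994626) are neighbours on the reverse strand of chromosome 14. *Myh7b* lies on chromosome 2 (155611212 to 155634307), *Myh9* on chromosome 15 (77760587 to 77842175) and *Myh10* on chromosome 11 (68691559 to 68816632). The promoters of these 5 clustered genes are shown because the cluster holds the most abundant sarcomeric myosins and *Myh4*, the member that differed most between the cell types on 5d. Each runs from 250 bases before to 50 bases after the start in RefSeq (GRCm38.p6), 5′ to 3′, and capitals mark matches on either strand to 4 motifs: the E-box CANNTG read by MyoD and myogenin, the TATA box TATAAA, the MCAT element CATTCC read by TEAD factors and the AT-rich motif of MEF2.

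Myh3, chr11:67078050-67078349: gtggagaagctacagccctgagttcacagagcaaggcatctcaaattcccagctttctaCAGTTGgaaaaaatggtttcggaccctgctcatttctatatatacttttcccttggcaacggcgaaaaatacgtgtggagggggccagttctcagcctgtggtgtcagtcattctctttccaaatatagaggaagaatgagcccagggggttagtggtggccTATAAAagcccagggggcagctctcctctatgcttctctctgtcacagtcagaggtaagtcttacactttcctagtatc

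Myh2, chr11:67170777-67171076: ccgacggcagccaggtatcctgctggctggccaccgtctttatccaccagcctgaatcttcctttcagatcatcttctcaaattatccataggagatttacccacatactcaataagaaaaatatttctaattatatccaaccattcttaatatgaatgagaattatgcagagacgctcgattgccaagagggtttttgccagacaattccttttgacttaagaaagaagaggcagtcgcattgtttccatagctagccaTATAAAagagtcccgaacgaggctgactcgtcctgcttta

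Myh1, chr11:67199852-67200151: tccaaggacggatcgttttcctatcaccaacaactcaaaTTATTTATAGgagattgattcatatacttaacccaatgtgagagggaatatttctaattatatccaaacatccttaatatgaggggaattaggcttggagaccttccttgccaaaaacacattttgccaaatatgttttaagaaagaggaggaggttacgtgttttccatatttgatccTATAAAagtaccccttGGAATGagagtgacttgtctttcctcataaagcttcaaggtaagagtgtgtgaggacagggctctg

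Myh4, chr11:67237562-67237861: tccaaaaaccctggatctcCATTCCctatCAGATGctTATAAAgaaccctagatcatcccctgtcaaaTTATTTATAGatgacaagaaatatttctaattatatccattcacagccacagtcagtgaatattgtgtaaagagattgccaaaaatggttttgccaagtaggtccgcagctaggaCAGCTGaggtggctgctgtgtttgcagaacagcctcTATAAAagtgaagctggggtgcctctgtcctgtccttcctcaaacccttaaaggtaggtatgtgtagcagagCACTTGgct

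Myh8, chr11:67276874-67277173: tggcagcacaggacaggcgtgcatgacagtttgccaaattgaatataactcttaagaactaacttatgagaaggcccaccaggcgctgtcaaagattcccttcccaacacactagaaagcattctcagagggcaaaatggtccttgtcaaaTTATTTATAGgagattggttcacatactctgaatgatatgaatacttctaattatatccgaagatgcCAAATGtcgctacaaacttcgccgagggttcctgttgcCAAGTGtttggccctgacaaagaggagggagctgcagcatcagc

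*Myh1*, *Myh4* and *Myh8* held the same MEF2 match (at -211 to -202, -182 to -173 and -99 to -90, where the first transcribed base is 1), inside a run of 15 bases that these promoters shared. A MEF2 match was found in 3.19% of all 32851 promoters of this length and in no other member, and each contains TTTATA, the TATA box read on the other strand. The longest run shared by *Myh1*, *Myh2* and *Myh4* was of 20 bases, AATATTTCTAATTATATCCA. The 3 promoters of the 32851 that hold it are these same ones, from which it was picked. A TATA box on the forward strand stood close before the start in *Myh1* (-32 to -27), *Myh4* (-31 to -26) and *Myh3* (-29 to -24), the 3 sarcomeric genes with the highest FPKM on 5d. In *Myh2* (11 to 16) and *Myh6* (2 to 7) it lay just after the start. These positions depend on the RefSeq start, which in *Myh4* lies before the gene start given above (67238029), and a tie to the FPKM was not tested. A TATA box lay somewhere in 7 of the 10 members against 13.6% of all promoters. An E-box was found in 8 of the 10 members, and in 72.3% of all promoters, and an MCAT element in 5 members, and in 14.7% of all. *Myh4* held 3 E-boxes, while *Myh1* and *Myh2* held none in this window. The sequence AGGTCA, the core read by nuclear receptors, was found in *Myh7b* alone of the 10 members and in 16.3% of all promoters, and its direct repeat with a spacer of 1 base, the element of PPARγ, in no member and in 0.0396% of all. Promoter identity was highest between *Myh1* and *Myh4* (57.8% of aligned columns).

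The deposited unit was the FPKM (fragments per kilobase of exon, scaled to the mapped fragments of the library), which is per length and so lets genes be compared within a library. Between 10836662 and 15133172 fragments per library lay on the 21226 expressed genes for which the FPKM gave whole numbers of fragments. *Pparg*, the gene added to the PPARγ/+ cells, stood at 5.10 to 7.56 FPKM in WT_0d, 3.12 to 4.59 in WT_5d, 28.0 to 46.4 in PPARγ/+_0d and 40.1 to 92.7 in PPARγ/+_5d. Of 8 skeletal muscle markers all were above 0 in 11 of the 12 libraries, and their summed FPKM was 157 to 347 in WT_0d, 68.5 to 108 in PPARγ/+_0d, 898 to 3774 in WT_5d and 1025 to 1197 in PPARγ/+_5d. The libraries WT_0d replicate 2 and WT_5d replicate 3 stood apart from their groups in the myosin genes, as the values below show. The 7 adipocyte markers, *Pparg* among them, summed to 5.15 to 7.59 FPKM in WT_0d, 3.19 to 4.63 in WT_5d, 30.9 to 50.6 in PPARγ/+_0d and 53.3 to 160 in PPARγ/+_5d, and *Lep* was at 0 in every library. *Pparg* itself held most of these sums in WT_0d, WT_5d and PPARγ/+_0d. In the limma test between the cell types on 5d, 5 of the 6 tested markers were called higher in PPARγ/+ cells and none lower. They were *Pparg*, *Adipoq* (log2 fold change 7.22), *Fabp4* (5.65), *Plin1* (3.56) and *Cidec* (2.53), and 103 of all 18023 genes were called higher there. Smooth muscle markers, 5 genes, summed to 496 to 579 FPKM in WT_0d, 1114 to 1369 in WT_5d, 493 to 672 in PPARγ/+_0d and 826 to 991 in PPARγ/+_5d. Single genes of this list went both ways over the 5 days in the limma test described below. In WT cells *Acta2* was called higher (log2 fold change 1.22) and *Cnn1* lower (-1.94). In PPARγ/+ cells *Cnn1* (-2.10) and *Tagln* (-1.68) were called lower and none higher. The 3 endothelial markers summed to at most 0.115 FPKM in any library, and the 4 macrophage markers to between 2.07 and 5.13, with only *Cd68* reaching 1 FPKM.

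On 0d the non-muscle chains held nearly all of the family's RNA, and on 5d the sarcomeric chains joined them, led by *Myh3*. In WT_0d the mean FPKM was 186 ± 18.0 (SD, n = 3) for *Myh9*, 19.0 ± 0.939 for *Myh10*, 2.95 ± 4.13 for *Myh3* and 0.505 ± 0.613 for *Myh1*, and the other 6 members stayed at or below 0.132 FPKM in each library. In WT_5d the order was *Myh3* (307 ± 219), *Myh9* (137 ± 6.35), *Myh1* (60.5 ± 36.1), *Myh4* (38.9 ± 30.1) and *Myh10* (10.3 ± 0.484), followed by *Myh7* (3.34 ± 3.05), *Myh7b* (2.71 ± 1.40), *Myh2* (2.62 ± 1.49), *Myh8* (2.38 ± 2.20) and *Myh6* (0.691 ± 0.515). The ranges of *Myh3* and *Myh9*, and of each neighbouring pair from *Myh7* to *Myh8*, overlapped, and the order of these pairs differed between libraries. *Myh1* was above *Myh4*, and *Myh8* above *Myh6*, in all 3 libraries although their ranges overlapped too. In PPARγ/+_5d the order began with *Myh9* (148 ± 9.45), *Myh3* (49.3 ± 6.92), *Myh10* (10.5 ± 0.117) and *Myh1* (10.5 ± 1.98), and *Myh4* (1.54 ± 0.733) lay well below *Myh1* and overlapped *Myh2* (0.910 ± 0.134). *Myh7b* (0.490 ± 0.0635), *Myh8* (0.307 ± 0.0411), *Myh7* (0.257 ± 0.0578) and *Myh6* (0.0623 ± 0.0510) followed, where only *Myh8* and *Myh7* overlapped. The length by which the FPKM of *Myh8* was divided, 11772 bp, is the union of its annotated exons, against 6016 to 8616 bp in the other sarcomeric genes, which lowers its FPKM beside theirs.

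**Figure D1:**
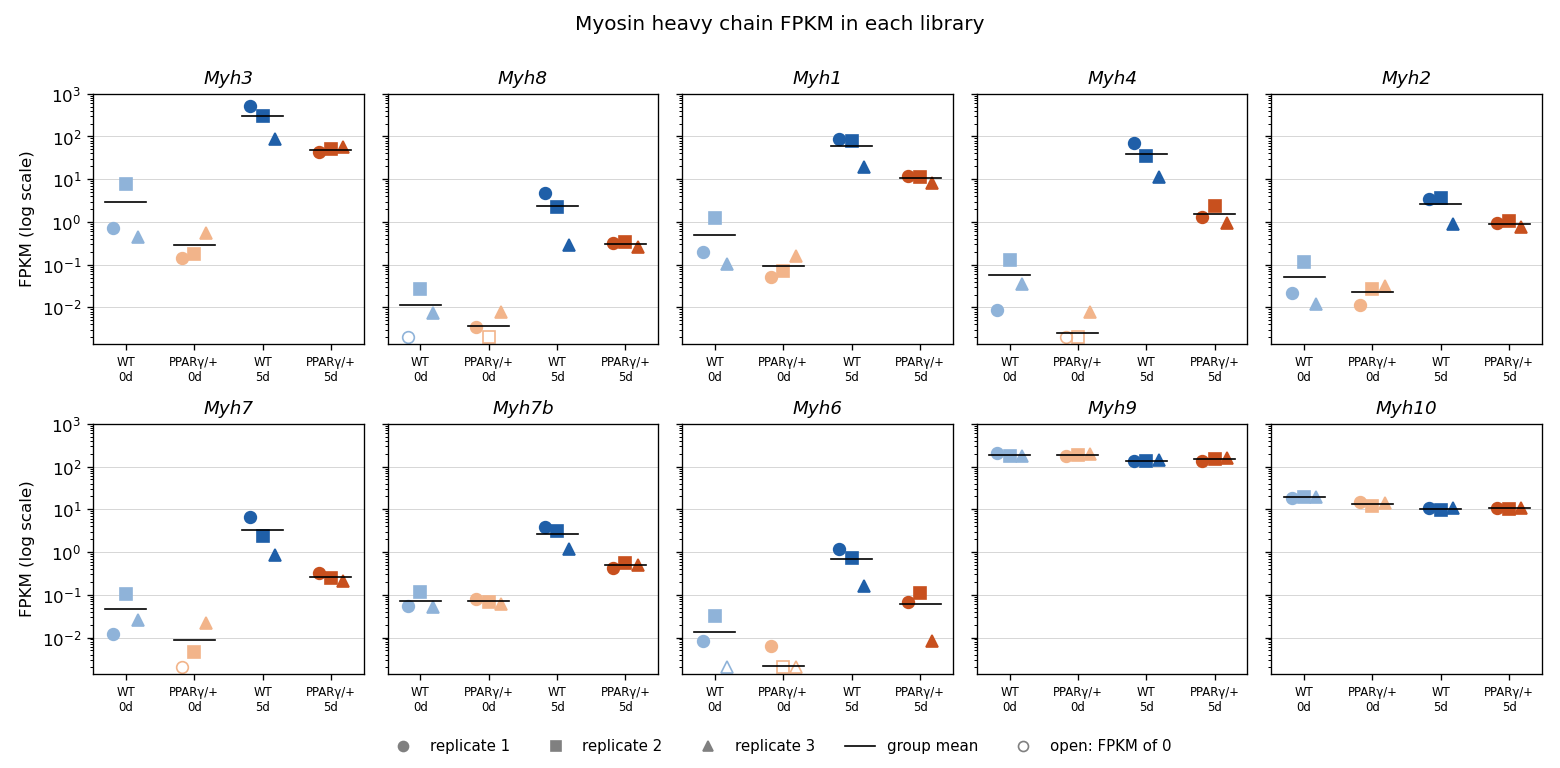
FPKM (log axis) of the 10 myosin heavy chain genes in each of the 12 libraries, with 1 panel per gene, the groups WT 0d, PPARγ/+ 0d, WT 5d and PPARγ/+ 5d along each x axis, a symbol per replicate and a line at the group mean. Open symbols at the bottom of a panel are libraries at 0 FPKM. All 8 sarcomeric genes lie higher on 5d than on 0d in both cell types, WT_5d replicate 3 is the lowest WT library on 5d in all 8 of them, and the non-muscle genes *Myh9* and *Myh10* stay within a narrow band.

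All 8 sarcomeric genes rose in WT cells from 0d to 5d, and both non-muscle genes were lower on 5d by less than 2-fold. The call here needed a 2-fold change or more with an unadjusted p no larger than 0.05 (limma on log2(FPKM + 0.1), 3 libraries against 3). Of all 18023 genes tested, 8.94% were called higher and 7.53% lower. *Myh3* stood at 0.706, 7.72 and 0.435 FPKM in replicates 1 to 3 on 0d and at 527, 307 and 87.9 on 5d. Every library on 5d was above every library on 0d by more than 10-fold, WT_0d replicate 2 was the highest on 0d and WT_5d replicate 3 the lowest on 5d. The log2 fold change of *Myh3* was 7.34 (SE 1.13, adjusted p = 0.00387). *Myh8*, the perinatal chain, was at 0, 0.0269 and 0.00734 FPKM on 0d, which is 0, 8 and 2 fragments, and at 4.67, 2.18 and 0.291 on 5d (log2 fold change 3.87, SE 0.87, adjusted p = 0.0151). Fewer cells that make a transcript and less of it per cell cannot be told apart in RNA of whole cultures, here or in any result below.

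The fast genes rose in the same libraries. *Myh1* stood at 0.203, 1.21 and 0.102 FPKM on 0d and at 85.1, 77.3 and 19.0 on 5d (log2 fold change 6.86, SE 0.85, adjusted p = 0.00181). *Myh4* went from 0.00857, 0.132 and 0.0359 FPKM, or 1, 20 and 5 fragments, to 70.9, 34.3 and 11.3 FPKM, or 10870, 3984 and 1550 fragments. Its log2 fold change of 7.65 (SE 0.67, adjusted p = 0.000552) was the highest among the 10 members in this fit, but with 1 FPKM added *Myh4* (4.90) lay below *Myh3* (6.46) and *Myh1* (5.16), and without WT_0d replicate 2 *Myh4* (7.96) lay below *Myh3* (8.53). *Myh2*, the 2A chain, reached 3.39, 3.57 and 0.910 FPKM on 5d from 0.0217, 0.117 and 0.0121 (log2 fold change 4.03, SE 0.56, adjusted p = 0.00271). Among the fast genes on 5d, *Myh2* was thus the lowest in every WT library.

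The slow and cardiac genes rose from close to 0 and stayed low on 5d. *Myh7* went from 0.0120, 0.106 and 0.0252 FPKM to 6.74, 2.43 and 0.864 (log2 fold change 4.16, SE 0.70, adjusted p = 0.00535). *Myh7b* went from 0.0544, 0.114 and 0.0521 FPKM to 3.89, 3.08 and 1.16 (log2 fold change 3.88, SE 0.45, adjusted p = 0.00146). *Myh6*, the cardiac chain, went from 0.00812, 0.0312 and 0 FPKM to 1.19, 0.727 and 0.159 (log2 fold change 2.53, SE 0.59, adjusted p = 0.0168). The 7 cardiac markers, of which 1 or 2 were at 0 in each library, summed to 14.6 to 16.7 FPKM in WT_0d, 33.6 to 155 in WT_5d, 10.4 to 11.7 in PPARγ/+_0d and 26.9 to 32.3 in PPARγ/+_5d, and their part in the result was not tested. The atrial light chain gene *Myl7* and the natriuretic peptide gene *Nppa* were at 0 in every WT library, while *Gata4* (4.72 to 7.63 FPKM in WT cells) and *Tnnt2*, a troponin gene of heart and of immature skeletal muscle (3.10 to 6.30 FPKM in WT_0d and 25.9 to 146 in WT_5d), were detected. Over the 5 days in WT cells *Tnnt2* was called higher (log2 fold change 3.98) and *Nppb*, of the same list, lower (-1.21, adjusted p = 0.0696 in limma). In PPARγ/+ cells *Tnnt2* was called higher (4.40) and no cardiac marker lower. On 0d both genes were called lower in PPARγ/+ than in WT cells (*Tnnt2* -2.03, *Nppb* -2.52), but with voom weights only *Nppb* was. *Myh6* and *Myh7* share 1373 stretches of 50 bases in their coding transcripts, 21.9% of those of *Myh6*, so reads could be split or lost between them, and *Mhrt*, *Gm29015* and *Gm31251* overlap exons of *Myh7* on the other strand, from which the library kit does not separate them. The other overlaps of this kind are *Myhas* with *Myh1* (515 bp), *9430073C21Rik* with *Myh2* (237 bp), *Gm49130* with *Myh6* (114 bp) and *Trpc4ap* with *Myh7b* (37 bp). Of these overlapping genes with a value only *Trpc4ap* was abundant, at up to 19.7 FPKM, and the others reached at most 0.343 FPKM.

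In PPARγ/+ cells 7 of the 8 sarcomeric genes passed the limma test from 0d to 5d, all higher, with 9.11% of all genes called higher and 6.06% lower in this comparison. *Myh3* went from 0.142, 0.177 and 0.552 FPKM to 42.2, 49.7 and 56.1 (log2 fold change 7.12, SE 0.36, adjusted p = 3.18e-05). *Myh1* went from 0.0516, 0.0724 and 0.159 FPKM to 11.9, 11.4 and 8.26 (log2 fold change 5.79, SE 0.25, adjusted p = 1.96e-05), and *Myh2* from 0.0115, 0.0269 and 0.0321 to 0.926, 1.04 and 0.769 (log2 fold change 3.03, SE 0.20, adjusted p = 7.81e-05). The libraries on 5d lay much closer together than those of WT cells, and none on 5d overlapped one on 0d in these 3 genes. *Myh4* was at 0, 0 and 0.00761 FPKM on 0d, which is a single fragment in all 3 libraries, and at 1.31, 2.36 and 0.948 on 5d, which is 163, 305 and 106 fragments. The ratio of these sums per depth was 682 with an exact 95% interval from 122 to 27001 that covers counting error only. The fitted log2 fold change of *Myh4*, 3.91 (SE 0.33, adjusted p = 0.000177), depends on the 0.1 added to each value.

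*Myh8* held 3 fragments in the PPARγ/+_0d libraries together and stood at 0.320, 0.340 and 0.261 FPKM on 5d, a ratio of 87.6 (exact 95% interval 29.6 to 428), and was called (adjusted p = 0.000431). *Myh7* went from 0, 0.00447 and 0.0213 FPKM to 0.320, 0.244 and 0.207 (log2 fold change 1.71, SE 0.23, adjusted p = 0.00121). *Myh7b* went from 0.0803, 0.0694 and 0.0621 FPKM to 0.422, 0.547 and 0.503 (log2 fold change 1.79, SE 0.19, adjusted p = 0.000479). *Myh6* held 1 fragment in the 3 libraries on 0d and 9, 15 and 1 on 5d, a ratio of 29.7 (exact 95% interval 4.87 to 1220). limma on log2(FPKM + 0.1) did not call it (log2 fold change 0.62, SE 0.31, adjusted p = 0.143), while limma with voom weights on recovered fragments did (3.36, adjusted p = 0.0190), as did limma with 0.01 FPKM added (2.24, adjusted p = 0.0905, unadjusted p = 0.0484). With 1 FPKM added to each value in place of 0.1, only *Myh1*, *Myh3* and *Myh4* passed both thresholds.

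**Figure D2:**
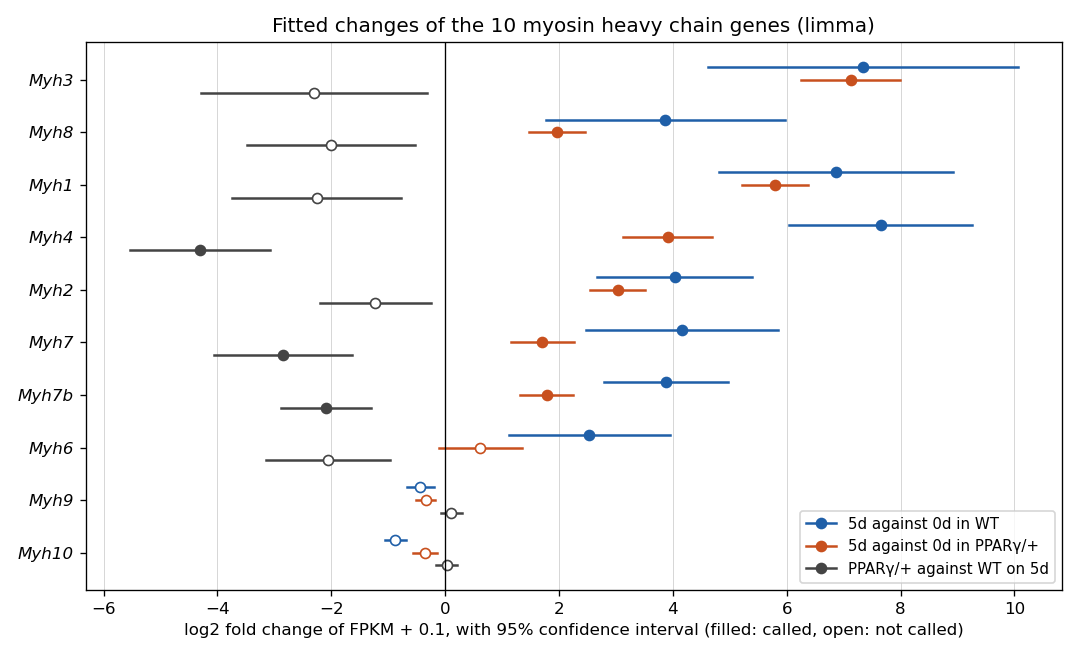
Fitted log2 fold change (x axis) of each of the 10 genes from 0d to 5d in WT cells (blue) and in PPARγ/+ cells (orange) and between PPARγ/+ and WT cells on 5d (grey), with 95% confidence intervals and filled points where the gene was called. On 5d every sarcomeric gene has a negative value in PPARγ/+ against WT cells, and *Myh4* lies lowest at -4.30, while *Myh9* and *Myh10* lie close to 0.

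On 5d the PPARγ/+ libraries held less of every sarcomeric myosin than the mean of the WT libraries, and *Myh4*, *Myh7* and *Myh7b* passed the test between the cell types (a 2-fold change or more with an adjusted p no larger than 0.05, in a fit over all 12 libraries). Of all genes tested, 0.533% were called lower in this comparison. *Myh4*, at 70.9, 34.3 and 11.3 FPKM in WT cells against 1.31, 2.36 and 0.948 in PPARγ/+ cells, differed most, and its groups did not overlap. Its log2 fold change was -4.30 (SE 0.56, 95% interval -5.53 to -3.07, adjusted p = 0.00415). *Myh7*, at 6.74, 2.43 and 0.864 FPKM against 0.320, 0.244 and 0.207, had a log2 fold change of -2.85 (SE 0.55, adjusted p = 0.0292). The call of *Myh7* was lost with voom weights (adjusted p = 0.0787), with 1 FPKM added (adjusted p = 0.0588) and with 0.01 FPKM added (adjusted p = 0.0913). *Myh7b*, at 3.89, 3.08 and 1.16 against 0.422, 0.547 and 0.503, had a log2 fold change of -2.10 (SE 0.36, adjusted p = 0.0171).

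The other sarcomeric genes were not called on 5d by limma on log2(FPKM + 0.1), although each had an unadjusted p under 0.05. An unadjusted p of at most 0.05 was found for 8 of the 10 members and for 2766 of all 18023 genes. *Myh3*, at 527, 307 and 87.9 FPKM in WT cells against 42.2, 49.7 and 56.1 in PPARγ/+ cells, did not overlap between the groups, and its log2 fold change was -2.30 (SE 0.90, 95% interval -4.29 to -0.32, adjusted p = 0.258). *Myh1*, at 85.1, 77.3 and 19.0 against 11.9, 11.4 and 8.26, did not overlap either (log2 fold change -2.26, SE 0.67, adjusted p = 0.136), and was called with voom weights (adjusted p = 0.0302) and with 1 FPKM added (adjusted p = 0.0409). *Myh6* (-2.06, adjusted p = 0.0668), *Myh8* (-2.00, adjusted p = 0.183) and *Myh2* (-1.23, adjusted p = 0.217) had values of the same sign, and in *Myh8* and *Myh2* the WT library of replicate 3 lay within the range of the PPARγ/+ libraries. These calls turned on the WT library of replicate 3. Without it 7 members were called lower, all sarcomeric genes but *Myh3* (adjusted p = 0.0579). Of all 18023 genes 508 were then called lower, against 96 with all libraries. Without any single one of the other 5 libraries of 5d only *Myh4* was called, and 33 to 49 of all genes were called lower. The adjusted p was then 0.0539 to 0.129 for *Myh7* and 0.0559 to 0.0807 for *Myh7b*. In a fit of the 6 libraries of 5d alone no member was called, and *Myh4* had an adjusted p of 0.104. In that fit 6 members, and 2281 of all 18023 genes, had an unadjusted p of at most 0.05. The skeletal markers moved with these genes, since WT_5d replicate 3 had a summed FPKM of 898 against 3002 and 3774 in the other WT libraries and 1025 to 1197 in PPARγ/+ cells, and their part in the result was not tested.

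The make-up of the sarcomeric myosin RNA was less uneven than its amount. The summed FPKM of the 8 sarcomeric genes on 5d was 703, 430 and 122 in WT cells and 57.5, 65.7 and 67.0 in PPARγ/+ cells. *Myh3* took 75.0%, 71.3% and 72.3% of this sum in the WT libraries and 73.4%, 75.6% and 83.7% in the PPARγ/+ libraries, and *Myh1* took 12.1%, 18.0% and 15.6% against 20.7%, 17.4% and 12.3%. Both ranges overlapped between the cell types. *Myh4* took 10.1%, 7.98% and 9.30% in WT cells and 2.27%, 3.59% and 1.41% in PPARγ/+ cells, a difference of -6.70 points between the means. The WT library of replicate 3, low in every sarcomeric gene, lay between the other WT libraries in this share. *Myh4* stood at 0.833, 0.444 and 0.594 times the FPKM of *Myh1* in WT cells and at 0.110, 0.207 and 0.115 times in PPARγ/+ cells.

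*Myh7* also held a smaller share in PPARγ/+ cells (0.309% to 0.557% against 0.564% to 0.960%), and *Myh2* a larger one (1.15% to 1.61% against 0.482% to 0.830%), with no overlap of the libraries. In all 3 of *Myh4*, *Myh7* and *Myh2* the two-sided exact permutation test gave p = 0.1, the smallest that 3 libraries against 3 allow, and an adjusted p of 0.267 over the 8 genes. The shares of *Myh7b* (0.740% ± 0.201 in WT and 0.772% ± 0.0530 in PPARγ/+ cells, SD, n = 3) and *Myh8* (0.470% ± 0.215 and 0.487% ± 0.0873) differed by less than their spread.

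**Figure D3:**
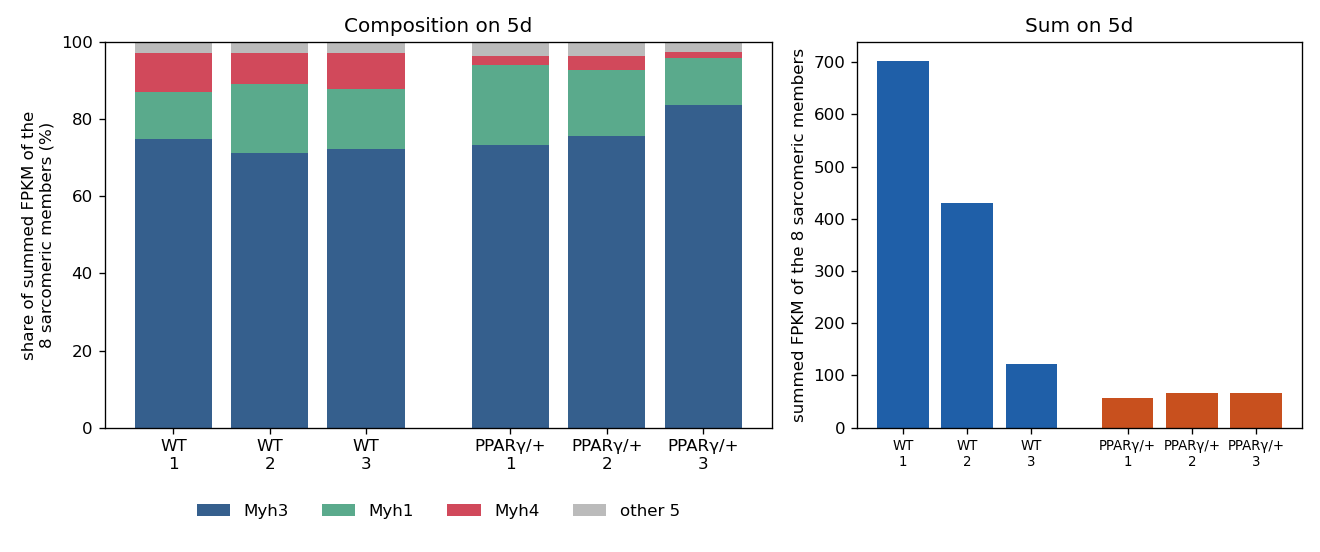
Left, share (%) of *Myh3*, *Myh1*, *Myh4* and the other 5 sarcomeric genes in their summed FPKM in each library of 5d. Right, that summed FPKM itself (bars, WT libraries 1 to 3 in blue and PPARγ/+ libraries 1 to 3 in orange). The share of *Myh4* is 7.98% or more in each WT library and 3.59% or less in each PPARγ/+ library, while the sum runs from 122 to 703 FPKM in WT cells and from 57.5 to 67.0 in PPARγ/+ cells.

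Before differentiation none of the 10 members was called between the cell types by limma, against 1.96% of all genes called in either direction. An unadjusted p of at most 0.05 was found for 2 members and for 3831 of all 18023 genes. limma with voom weights on recovered fragments also called none. It gave 1 member, and 2807 of the 13375 genes tested, an unadjusted p of at most 0.05. *Myh10* was lower in PPARγ/+ cells by less than 2-fold, at 14.6, 11.7 and 14.4 FPKM against 18.0, 19.3 and 19.8 in WT cells, with no overlap (log2 fold change -0.49, SE 0.09, adjusted p = 0.00877). *Myh3* had a log2 fold change of -2.09 (SE 0.90, adjusted p = 0.210) with WT_0d replicate 2 at 7.72 FPKM against 0.706 and 0.435 in its group, and of -0.90 (adjusted p = 0.529) without that library. *Myh4* held 1, 20 and 5 fragments in WT_0d and a single one in PPARγ/+_0d, a ratio of 27.7 with an exact 95% interval from 4.56 to 1137, and it was not called (adjusted p = 0.622). The skeletal markers were lower in PPARγ/+_0d too, with a summed FPKM of 68.5 to 108 against 157 to 347, and *Myf5* and *Cdh15* were called lower among their 8 genes.

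The interaction term of the fit asked whether PPARγ/+ and WT cells changed by unlike amounts over the 5 days, and 0.76% of all genes and none of the 10 members passed it at an adjusted p of 0.05 in limma. An unadjusted p of at most 0.05 was found for 5 members and for 2164 of all 18023 genes. With voom weights it was found for 1 member and for 1451 of the 13375 genes tested. The fitted rise of *Myh4* was smaller in PPARγ/+ cells by 3.75 on the log2 scale (SE 0.79, adjusted p = 0.0644). That of *Myh7b* was smaller by 2.09 (SE 0.51, adjusted p = 0.107), that of *Myh7* by 2.46 (SE 0.78, adjusted p = 0.223) and that of *Myh6* by 1.92 (SE 0.70, adjusted p = 0.288). The value of *Myh4* depends on the 0.1 FPKM added, since the PPARγ/+_0d libraries together held 1 fragment. With nothing added, *Myh4* rose 661-fold in WT cells (ratio of mean FPKM). In PPARγ/+ cells its ratio of fragments per depth was 682 (exact 95% interval 122 to 27001), so a smaller rise of *Myh4* is not shown. *Myh10* fell less in PPARγ/+ than in WT cells, by 0.52 (SE 0.12, adjusted p = 0.0904). For *Myh3* the coefficient was -0.21 (SE 1.28, 95% interval -3.02 to 2.59), an interval that leaves room for large differences either way. Without WT_5d replicate 3, *Myh4*, *Myh6*, *Myh7*, *Myh7b* and *Myh8* passed the test, each with a smaller fitted rise in PPARγ/+ cells. Of all 18023 genes 527 then passed it, against 137 with all libraries. The fitted rises of *Myh6* and *Myh8* also depend on the 0.1 added, with 1 and 3 fragments in PPARγ/+_0d. Over all libraries the ratio of mean FPKM in WT cells was 52.7 for *Myh6* and 208 for *Myh8*. The fragment ratios in PPARγ/+ cells were 29.7 (exact 95% interval 4.87 to 1220) and 87.6 (29.6 to 428).

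The non-muscle genes changed by less than 2-fold in each comparison, and on 5d their libraries overlapped between the cell types. *Myh9* stood at 207, 178 and 174 FPKM in WT_0d and at 132, 135 and 144 in WT_5d, and every library on 5d was below every one on 0d (log2 fold change -0.44, SE 0.10, adjusted p = 0.0152). In PPARγ/+ cells it went from 178, 190 and 195 FPKM to 138, 149 and 157 (log2 fold change -0.34, SE 0.07, adjusted p = 0.00684). *Myh10* was at 18.0, 19.3 and 19.8 FPKM in WT_0d and at 10.6, 9.79 and 10.7 in WT_5d (log2 fold change -0.87, SE 0.08, adjusted p = 0.000536), and in PPARγ/+ cells at 14.6, 11.7 and 14.4 and then at 10.7, 10.4 and 10.5 (log2 fold change -0.35, SE 0.09, adjusted p = 0.0181). Neither fell by 2-fold in either cell type. The FPKM of the median gene moved by -0.08 in WT and -0.10 in PPARγ/+ cells on the log2 scale, and by 0.02 in both after median-ratio scaling. After that scaling *Myh9* still changed by -0.31 (adjusted p = 0.0283) and -0.21 (adjusted p = 0.0449), and *Myh10* by -0.75 (adjusted p = 0.00176) in WT cells, but *Myh10* in PPARγ/+ cells by -0.22 with an adjusted p of 0.122.

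On 5d the log2 fold change of PPARγ/+ against WT cells was 0.11 for *Myh9* (95% interval -0.07 to 0.30) and 0.03 for *Myh10* (95% interval -0.16 to 0.21). *Myh9* made up 90.7% ± 1.18 (SD, n = 3) of the summed FPKM of the pair in WT_0d, 93.0% ± 0.356 in WT_5d, 93.3% ± 0.879 in PPARγ/+_0d and 93.4% ± 0.450 in PPARγ/+_5d. The WT_0d libraries lay below those of WT_5d and of PPARγ/+_0d, with an exact permutation p of 0.1 in both cases (adjusted p = 0.16 over 8 tests). The pair together made up 95.4% to 99.7% of the summed FPKM of all 10 members in WT_0d and 99.6% to 99.8% in PPARγ/+_0d. On 5d it made up 16.9%, 25.2% and 56.0% in the WT libraries against 72.2%, 70.8% and 71.5% in the PPARγ/+ libraries, which did not overlap (exact permutation p = 0.1, adjusted p = 0.16). Its summed FPKM hardly moved between the cell types on 5d, at 143 to 155 in WT and 149 to 168 in PPARγ/+ cells, so the difference in share lay in the sarcomeric genes.

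**Figure D4:**
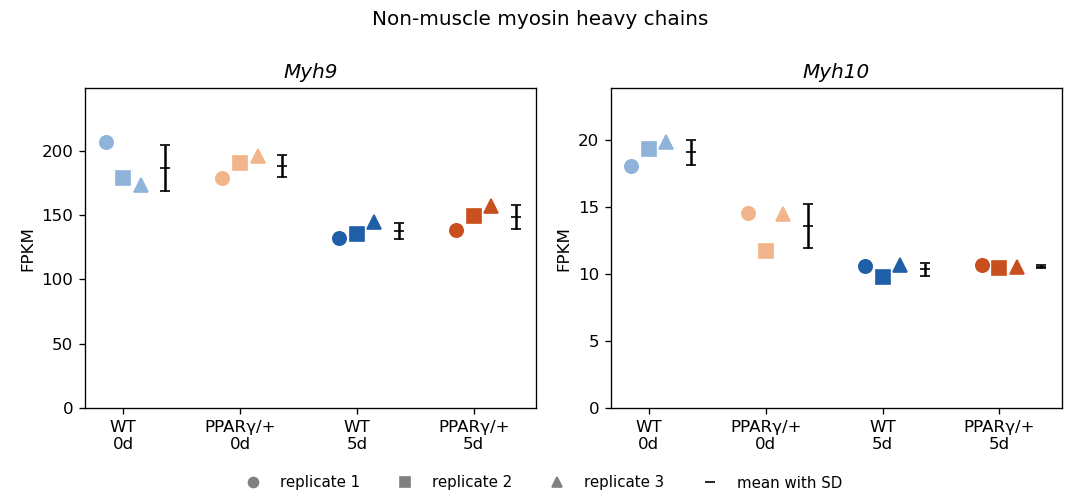
FPKM (linear axes from 0) of *Myh9* and *Myh10* in each library of the 4 groups, with a symbol per replicate and the group mean with its SD beside it (n = 3). *Myh9* falls from 174 to 207 FPKM in WT_0d to 132 to 144 in WT_5d, and *Myh10* on 0d is lower in PPARγ/+ cells (11.7 to 14.6) than in WT cells (18.0 to 19.8) and alike on 5d.

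Of 12 myosin light chain genes, 10 could be tested, and 5 were called higher and none lower on 5d in each cell type, against 8.94% of all genes called higher in WT and 9.11% in PPARγ/+ cells. With voom weights 6 light chain genes could be tested, and 3 were called higher in WT and 4 in PPARγ/+ cells. The highest among them in WT cells was *Mylpf*, the regulatory light chain of fast muscle (log2 fold change 6.76, SE 1.03), and the lowest *Myl6b* (2.76, SE 0.46). The median over the 10 was 1.47 in WT and 0.77 in PPARγ/+ cells. Of 13 tested genes of thick filament partners and myosin folding factors, 10 were called higher and 1 lower in each cell type, with medians of 4.22 and 4.01, against -0.08 and -0.10 over all genes. *Mybph*, a myosin-binding protein, rose most in WT cells (log2 fold change 6.73, SE 1.10), and *Hsp90aa1*, the inducible HSP90 chaperone, fell (-1.11, SE 0.15). *Smyd1*, a methyltransferase and cofactor of myosin assembly, was called lower in PPARγ/+ cells on 0d (0.0361 to 0.121 FPKM against 0.361 to 1.12, log2 fold change -1.93, SE 0.46, adjusted p = 0.0343). Its PPARγ/+_0d values lie around the 0.1 added, and with voom weights none of the 11 tested genes of this list was called on 0d. Between the cell types on 5d the median log2 fold change was -1.33 over the light chains and -0.90 over the partners, against 0.02 over all genes. No gene of either list was called there by limma or with voom weights. In limma 5 light chain and 4 partner genes had an unadjusted p of at most 0.05, as had 2766 of all 18023 genes. Without WT_5d replicate 3 limma called 5 light chain and 6 partner genes lower, and 508 of all 18023 genes.

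Of 11 regulators of non-muscle myosin, *Mylk*, the myosin light chain kinase, was called higher on 5d (log2 fold change 3.55, SE 0.28 in WT and 3.60, SE 0.22 in PPARγ/+ cells), *Cit*, the citron kinase of cytokinesis, lower (-1.90, SE 0.14 and -2.06, SE 0.14), and the other 9 were not called in either cell type by limma. These counts of 1 higher and 1 lower of 11 lie near the share of all genes called, 8.94% higher and 7.53% lower in WT and 9.11% and 6.06% in PPARγ/+ cells. Proliferation markers fell as *Cit* did, with 4 of 4 called lower in both cell types. Of 16 tested transcription factors of myosin genes, 5 were called higher and 1 lower in WT cells, and 3 higher and none lower in PPARγ/+ cells, beside the same shares of all genes. *Myog*, myogenin, was the highest in WT cells (1.47 to 15.7 FPKM on 0d and 90.0 to 271 on 5d, log2 fold change 5.40, SE 0.88) and *Myf5*, a factor of undifferentiated myoblasts, the lowest (-1.46, SE 0.20). On 0d *Myf5* was lower in PPARγ/+ cells (log2 fold change -1.58, SE 0.19, adjusted p = 0.00165). It was at 11.3 to 13.2 FPKM in WT_0d and 3.53 to 5.96 in WT_5d, and at 3.66 to 4.25 in PPARγ/+_0d and 5.58 to 8.47 in PPARγ/+_5d, and its interaction passed the test (2.20, SE 0.27, adjusted p = 0.00844). Of 4 further class II heavy chain genes only *Myh13*, the chain of extraocular muscle, passed the filter, rising from at most 0.0449 FPKM to at most 0.218 in both cell types, while *Myh11*, the smooth muscle chain, stayed at or below 0.0771 FPKM and *Myh15* at 0 in all 12 libraries.

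The genes most like each member over the 12 libraries were named by Pearson's r of log2(FPKM + 0.1) among 12400 genes with a mean of at least 1 FPKM in some group. These r describe libraries of 4 groups that share the change over 5 days. *Myh3* was closest to *Myl1* (r = 0.998), *Tnni2* and *Atp2a1*, and *Myh1* to *Cacna1s* (r = 0.997), *Tnnt3* and *Neb*. *Myh2* was closest to *Tekt5* (r = 0.996), *Myoz2* and *Smpx*, and *Myh8* to *Tpm2* (r = 0.992), *Prr32* and *Mybpc2*. *Myh4* and *Myh7b* were close to each other (r = 0.993), and *Depp1* and *4930429F24Rik* followed for *Myh4* and *Hspb3* and *Casq1* for *Myh7b*. *Myh7* was closest to *Acsl6* (r = 0.984), *Prkar1a* and *Prr32*, *Myh6* to *Prkar1a* (r = 0.985) and *Gja5*, *Myh9* to *Faf2* (r = 0.990), *Dpp9* and *Tmem131*, and *Myh10* to *Gjc1* (r = 0.987), *Gart* and *Ttll4*. Within the family, r was 0.994 between *Myh1* and *Myh3* and 0.990 between *Myh1* and *Myh2*, where reads could also be shared, since 25.4% of the 50-base stretches of *Myh1*, 26.9% of *Myh2*, 18.9% of *Myh4* and 16.7% of *Myh8* occur in another myosin gene, against 4.76% in *Myh3*.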

How the data were processed

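RNA of 12 C2C12 libraries (4 groups of 3) had been sequenced as read pairs on an Illumina platform from a TruSeq kit that does not keep strand. According to the methods, the authors used Trim Galore for trimming, STAR for alignment to GRCm38 (Ensembl) and HTSeq for counting. The submitters' processing notes name STAR and mm9, and the exonic lengths of GRCm38 gave whole fragments. The authors deposited the FPKM of each gene, which was used here, and the same values as log2(FPKM + 1), which the authors' table repeats to within 5.3e-14 and which served for that check only. Test columns by the authors were not used.

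The rule for the members uses names alone, but members and gene lists were proposed with earlier results of these data known. Named genes are all 10 members, *Pparg*, for each list the called gene with the highest and lowest fold change in WT cells and any called between the cell types, and for each member the 3 genes with the highest r, of which 1 is not reported here. *Cdh15*, the marker genes and the antisense genes were named after their values were seen.

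Fragments were recovered as FPKM times exonic length times mapped pairs, and counted as whole within 0.01. The annotated length served for 8 members and an inferred one for *Myh6* and *Myh7*. Depth was known for the 21226 genes with whole fragments, and intervals and the floor of 3 fragments cover counting error only. limma 3.58.1 (empirical Bayes with a trend, R 4.3.3) was fitted on log2(FPKM + 0.1) of the 18023 genes with 0.1 FPKM or more in at least 3 libraries. The change over time was fitted in each cell type on its own 6 libraries (called at an unadjusted p of at most 0.05 and 2-fold, as in the study), and the cell types and the interaction over all 12, with Benjamini-Hochberg adjustment over all genes tested. Shares were compared by two-sided exact permutation tests. Scripts were tested on simulated data. Promoters came from RefSeq (GRCm38.p6, all 10 members matched) and positions from GENCODE. Python 3.11.15, numpy 2.4.6, pandas 2.3.3, scipy 1.17.1, Biopython 1.88 and matplotlib 3.10.9 were used. Alternatives changed the value added to the FPKM, the filter, the scaling, the libraries in the fit, the replicate block and the denominator of shares. After the data were seen, voom on fragments, array weights and the removal of both outlying WT libraries were added. Same-numbered libraries did not deviate together (correlations between -0.068 and 0.083 in 18 pairs), so numbers were not treated as pairs.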

Additional observations from a re-analysis of the deposited data

Results flagged for a closer look

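*Myf5*, listed as a transcription factor of myosin genes, changed over the 5 days in opposite directions in the cell types, and the difference passed the interaction test of limma (2.20 on the log2 scale, SE 0.27, adjusted p = 0.00844 over all 18023 genes). All 3 libraries of PPARγ/+_5d were above those of PPARγ/+_0d, and all 3 of WT_5d below those of WT_0d. Over time only the fall in WT cells was called (log2 fold change -1.46, SE 0.20), and the rise in PPARγ/+ cells was not. None of the 10 heavy chain genes passed the interaction test.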

How the results depend on the processing

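Over the single members and all alternatives, 934 values kept their direction and their side of the threshold, 38 passed it newly, 21 no longer passed it and 22 changed sign, and where not said otherwise the cause was not tested. The 8 members called in WT cells over time became 5 with a filter at 1 FPKM, under which only 7 members were tested, and the 7 called in PPARγ/+ cells became 3 with 1 FPKM added to each value and 8, with *Myh6*, both with 0.01 FPKM added and with voom weights. Between the cell types on 5d, the count stayed at 3 with voom weights and with 1 FPKM added, but with *Myh1* in place of *Myh7*, and was 2 (*Myh4*, *Myh7b*) with 0.01 FPKM added or the filter at 1 FPKM. The 3 members called became 0 in a fit of the 6 libraries of 5d alone, 8 with array weights, 8 without both WT_0d replicate 2 and WT_5d replicate 3, and between 1 and 7 without any single library, 7 being the count without WT_5d replicate 3. The calls over all genes moved as well, from 199 to 28 in the fit of 6 libraries, 1363 with array weights, 821 without both libraries and 796 without WT_5d replicate 3. The interaction gave 1 member (*Myh4*) with 1 FPKM added, 7 with array weights, 7 without both of those WT libraries and from 0 to 5 without a single library, 5 again without WT_5d replicate 3. Over all genes it gave 137 calls in the main fit, 134 with 1 FPKM added, 2070 with array weights, 488 without both libraries and 527 without WT_5d replicate 3. Depth limits the genes near 0 on 0d, where *Myh4*, *Myh6* and *Myh8* held 1 to 3 fragments over the PPARγ/+ libraries.

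Changes of sign lay in differences close to 0 or with wide errors. *Myh10* on 5d was -0.011 on the log2 scale after median-ratio scaling and ran from -0.013 to 0.048 as libraries were left out. On 0d *Myh9* was -0.023 after median-ratio scaling (-0.033 to 0.094 with libraries left out), *Myh7b* 0.022 with 0.01 FPKM added and 0.0052 after quantile normalization (-0.091 to 0.15), *Myh8* ran from -0.17 to 0.0014 and *Myh2* from -0.40 to 0.077. The interaction of *Myh3* was 0.12 with 0.01 FPKM added and 0.28 with voom weights, ran from -1.40 to 0.53 with single libraries left out and was -2.14 without both WT libraries. With all 10 members as the denominator, the share on 5d differed between PPARγ/+ and WT cells by -27.0 points for *Myh3*, -5.34 for *Myh1*, -0.251 for *Myh7b*, -0.207 for *Myh8* and -0.0386 for *Myh2*, since the non-muscle genes then fill most of the PPARγ/+ sum. With libraries left out the difference in sarcomeric share ran from -0.398 to 3.80 points for *Myh1*, from -0.0619 to 0.138 for *Myh7b* and from -0.0983 to 0.114 for *Myh8*, and the change of the *Myh9* share over time in PPARγ/+ cells from -0.314 to 0.557 points.

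With the replicate number as a block, the members called stayed at 8, 7, 3, 0 and 0 in the 5 comparisons, and over all genes the interaction fell from 137 to 61 calls. Of 18 same-number correlations none was over 0.1. Each library of a group was also set against the 3 libraries of another group, and in 9 of these 18 comparisons the same number correlated best. Counts over all genes also moved by over 1.5 times with 1 FPKM added (WT time 2970 to 1441, PPARγ/+ time 2735 to 1241, 5d 199 to 95, 0d 353 to 120), with the filter at 1 FPKM (PPARγ/+ time 1806, 5d 93), in the fit of 6 libraries (5d 28), with voom weights (interaction 82), with array weights (5d 1363, 0d 555, interaction 2070), without both WT libraries (5d 821, interaction 488), and without single libraries (5d 78 to 796, 0d 180 to 491, interaction 42 to 527).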
